A study of Mus musculus with 6 samples.

Results

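The Ly6 genes encode small surface proteins of blood cells, and here they were followed in the marrow of mice, in cells sorted for a green fluorescent protein (GFP) reporter and in the marrow they came from. Of 6 listed genes (Ly6a, Ly6c1, Ly6c2, Ly6d, Ly6e and Ly6g), 4 were named by a probe set in the platform annotation used here: 1 probe set for Ly6d, 2 for Ly6e, and 1 that carries the symbols of both Ly6c1 and Ly6c2. These 4 probe sets, of 45037 tested, are the members described below. They were taken by symbol, from genes listed with earlier results of these data known. Ly6a and Ly6g have no probe set under their symbols in that annotation and were not analysed here. Every animal was an adult, 3 to 6 months of age, males and females both, and hemizygous for a transgene in which renin sequences drive GFP. The sorted group is marrow cells collected through a GFP gate (n = 3), and the presort group is whole marrow kept back from the same pools (n = 3). Marrow was flushed from the femurs of 4 to 5 mice and pooled for each replicate, so each sorted array has a presort partner from 1 pool. The gates dropped erythrocytes and debris by light scatter, kept single cells, and took in 0.1% of cells from animals lacking the transgene.

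Ly6 proteins fold into a compact domain held by disulfide bonds, and most are tied to the outer membrane by a glycosylphosphatidylinositol (GPI) anchor. Their genes lie in a cluster on mouse chromosome 15, and antibodies to several of them are standard tools for sorting marrow cells. Ly6d marks lymphoid progenitors that are set toward the B lineage and stays on B cells; it is also found on some precursors of plasmacytoid dendritic cells. Ly6c is used to separate monocyte subsets and is also carried by plasma cells, some T cells and endothelial cells. Ly6e is widely expressed on blood cells and is induced by type I interferon.

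The Ly6 probe sets went in different directions. The Ly6d probe set was 14.2-fold higher in sorted samples, 1 Ly6e probe set was 2.96-fold higher, the shared Ly6c probe set was 4.92-fold lower, and the other Ly6e probe set did not pass the test. Thus 2 of 4 member probe sets rose and 1 fell (limma, Benjamini-Hochberg adjusted p under 0.05 over all probe sets). Of all 45037 probe sets, 13% were called higher and 12.9% lower. The groups did not overlap for 3 of the 4 member probe sets, and for 40.2% of all probe sets. The median difference over the 4 members was 0.88 on the log2 scale, against 0.03 over all probe sets. The member values ran from -2.30 to 3.82, and this median lies between the 2 Ly6e probe sets, so it describes no common shift. When each array was centred on its median over genes, the median of all probe sets became 0.25 and 73.0% of called probe sets were higher, against 50.1% as deposited; the calls of the 4 members were the same under both scalings. In bulk samples such as these, a lower value from fewer cells of a type and one from less RNA per cell cannot be told apart.

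**Figure D1:**
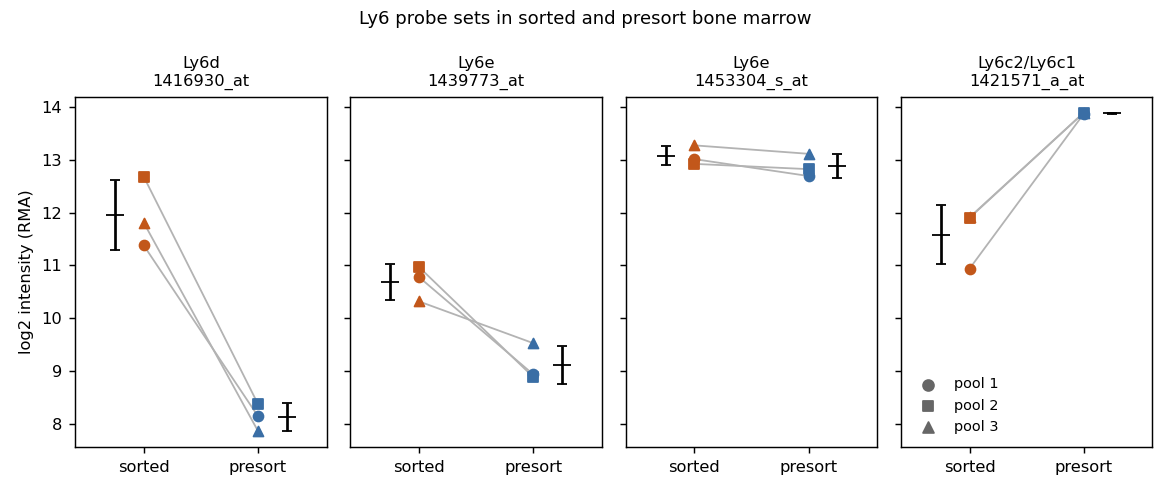
Log2 RMA intensity (vertical axis) of the 4 Ly6 probe sets in sorted (orange) and presort (blue) samples; symbols mark the pool, grey lines join the arrays of 1 pool, and black marks give mean and SD (n = 3 each). The sorted arrays lie above the presort arrays for Ly6d and for Ly6e 1439773_at and below them for the shared Ly6c probe set, while the groups overlap for Ly6e 1453304_s_at.

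Ly6d was read by the probe set 1416930_at. Its intensity was 2667, 6554 and 3603 in sorted replicates 1, 2 and 3, against 284, 334 and 234 in presort replicates 1, 2 and 3. Every sorted array was above every presort array, and sorted replicate 2 was the highest. On the log2 scale the mean was 11.96 ± 0.66 in sorted and 8.13 ± 0.26 in presort samples (SD, n = 3 each). The difference was 3.82 ± 0.32 (SE, log2), with a 95% interval of 3.07 to 4.58 (limma adjusted p = 0.000218). Within pools 1, 2 and 3 the differences were 3.23, 4.29 and 3.94, so the rise was smallest in pool 1. Only 13 of all 45037 probe sets had a higher difference than the Ly6d probe set.

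**Figure D2:**
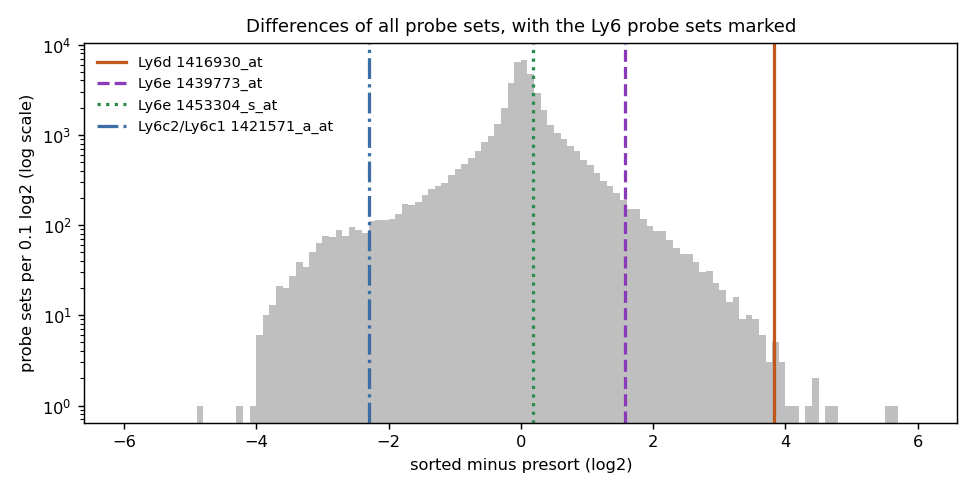
Number of probe sets (vertical axis, log scale) by their sorted minus presort difference (horizontal axis, log2), with the 4 Ly6 probe sets as vertical lines. Ly6d at 3.82 lies in the far right tail, Ly6e 1439773_at at 1.57 and the shared Ly6c probe set at -2.30 lie on the shoulders, and Ly6e 1453304_s_at at 0.19 lies in the centre.

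B lineage genes moved with Ly6d. Of the early lymphoid and B progenitor list, 13 of 17 measured genes rose and 2 fell, and their median was 1.92 (log2 difference); over all 18193 genes, each read by its brightest single-symbol probe set, 13.4% were higher, 17.3% lower, and the median was -0.0021. Ebf1, a transcription factor that sets progenitors on the B lineage, rose by 3.06 ± 0.29 (SE, log2, limma adjusted p = 0.000375). Foxo1, another transcription factor of early B cells, rose by 2.92 ± 0.26, Rag1, a subunit of the antigen receptor recombinase, by 2.75 ± 0.16, and Sox4 by 2.72 ± 0.34. Of the falls, singled out here once the values were known, Flt3, the receptor kinase of early multipotent and lymphoid progenitors, stood at -0.80, and Igll1, a part of the surrogate light chain, at -0.84. The Flt3 call was lost without pool 2 and with a covariate for RNA quality, the log2 excess of the 3′ over the 5′ beta-actin control probe set (limma adjusted p up to 0.0832). The Igll1 groups overlapped, with pool differences of -1.32, -1.20 and 0.00, and its call was lost under 11 of 19 alternatives, the replicate block among them (limma adjusted p up to 0.283). The remaining members were not called: Dntt, which adds bases at antigen receptor joints, stood at -0.79 (limma adjusted p = 0.0751) and Vpreb1, the other part of the surrogate light chain, at -0.77 (limma adjusted p = 0.136). The mature B list rose in all 12 measured members (median 2.26), with the B cell receptor modulator Cd72 at 2.69, the kinase gene Blk at 2.50 and Ms4a1, which encodes CD20, at 2.27. The summed intensity of the progenitor list ran from 89038 to 101751 in sorted and from 18402 to 33533 in presort samples, and that of the mature list from 72896 to 83370 in sorted and from 13620 to 23735 in presort samples. In both lists 0 measured markers had a group mean below the array median. The part of these cells in the Ly6d difference was not tested.

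The other marrow cells known to carry Ly6d gave mixed values. Of the plasmacytoid dendritic cell list, which holds Ly6d itself, 3 of 10 measured genes rose (30.0%) and 3 fell (30.0%; median -0.18). The whole gene set had 13.4% called up and 17.3% called down. Ly6d is itself among the 3 rises, so the share of rises is not independent of it. Besides Ly6d the largest called differences were those of Spib, a transcription factor shared with B cells, at 2.27, and of Ccr9, a chemokine receptor gene, at -1.53. The Ccr9 call was lost under 9 of 19 alternatives (limma adjusted p up to 0.297). Siglech, a lectin gene used to define these dendritic cells, and also singled out in that way, stood at -0.95 (limma adjusted p = 0.0302), a call lost under 7 of 19 alternatives (limma adjusted p up to 0.25). With the beta-actin covariate the differences were -1.01 for Ccr9 and -0.52 for Siglech. The other called members, given after their values were seen, were Tcf4 at 1.42 (limma adjusted p = 0.000325) and Irf7 at -1.45 (limma adjusted p = 0.00853). The calls of Tcf4 and Irf7 were not followed through the alternatives. The summed intensity of this list, Ly6d and Spib included, was 20754 to 22257 in sorted and 4997 to 7434 in presort samples. Ly6d alone gave 2667 to 6554 in sorted and 234 to 334 in presort samples. Spib, shared with B cells, had log2 means of 13.72 in sorted and 11.46 in presort samples. The sum is therefore not a measure of these dendritic cells apart from Ly6d and B cell signal.

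Ly6e was read by 2 probe sets that gave different differences. For 1439773_at the intensity was 1756, 2001 and 1274 in sorted replicates 1, 2 and 3, against 491, 475 and 740 in presort replicates 1, 2 and 3. All sorted arrays were above all presort arrays, and pool 3 had both the lowest sorted and the highest presort value. The means were 10.69 ± 0.34 in sorted and 9.12 ± 0.36 in presort samples (SD, log2, n = 3 each). The difference was 1.57 ± 0.23 (SE, log2), with a 95% interval of 1.02 to 2.11 (limma adjusted p = 0.00248). The pools gave 1.84, 2.08 and 0.78, so pool 3 showed the smallest rise.

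For 1453304_s_at the intensity was 8228, 7759 and 9873 in sorted replicates 1, 2 and 3, against 6626, 7222 and 8861 in presort replicates 1, 2 and 3. The groups overlapped, and replicate 3 was the highest array of each. This probe set differed by 0.19 ± 0.15 (SE, log2) and did not pass (limma adjusted p = 0.451). Its 95% interval of -0.17 to 0.55 leaves out the 1.57 of the other probe set. Its pool differences were 0.31, 0.10 and 0.16, all above 0. Averaged over all arrays this probe set was brighter than 99.2% of probe sets, and the ending _s_at marks a probe set that can match several transcripts; the part of either in its small difference was not tested.

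The difference of 1439773_at exceeded that of 1453304_s_at by 1.38 on the log2 scale. The excess was 1.53, 1.97 and 0.63 in pools 1, 2 and 3, in the same direction in 3 of 3 pools. An exact permutation test of 3 against 3 arrays cannot give a p under 0.1, so this excess is given with no test. When each gene was read by its brightest probe set, Ly6e was not called.

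Genes of the interferon response, to which Ly6e belongs, were more often lower than higher. Of 32 measured members of the interferon response list 7 rose (21.9%) and 15 fell (46.9%). Both shares were above the 13.4% higher and 17.3% lower over all genes. The median was -0.71 on the log2 scale, against -0.0021 over all genes. Ifitm3, a membrane protein that limits virus entry, stood at -3.36 ± 0.50 (SE, limma adjusted p = 0.00255), the antiviral synthetase gene Oas3 at -2.86, the RNA sensor gene Ifih1 at -2.45 and Oasl2 at -2.36. Ifitm3 was at 7.94 in sorted replicate 1, against 10.06 and 9.60 in sorted replicates 2 and 3 (log2), and its difference was -2.16 with the beta-actin covariate, still called. Of the 7 rises, given after their values were seen, the largest were Ddx58 and Parp14, each at 1.36, and Trim30a at 1.16. The list medians were -0.77, -0.65 and -0.57 in pools 1, 2 and 3. The summed intensity was 29956 to 37068 in sorted and 50069 to 51389 in presort samples.

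Ly6c1 and Ly6c2 share the probe set 1421571_a_at, so a change of one gene cannot be told apart from a change of the other. The transcript behind its design is one of Ly6c1, and the annotation gives both symbols. Promoter stretches are printed because they show how far these 2 genes, whose RNA this probe set does not separate, differ within 250 bases upstream of a start. RefSeq's GRCm38.p6 annotation gives 2 starts for each gene. Of the 4 pairings of the 250 bases upstream, the one with the most identical positions gave 164 identical positions of 228 aligned (71.9%), with 52 mismatches and 12 gap positions. The aligned stretches are offset: they run from base 219 to base 1 upstream for Ly6c1 and from base 250 to base 26 for Ly6c2. Bases of the windows outside these stretches are neither printed nor counted. Capitals mark bases that differ or have no partner in the other gene, the strand is minus for both, and the stretches are chr15:75048838-75049056 for Ly6c1 and chr15:75111997-75112221 for Ly6c2.
Ly6c1: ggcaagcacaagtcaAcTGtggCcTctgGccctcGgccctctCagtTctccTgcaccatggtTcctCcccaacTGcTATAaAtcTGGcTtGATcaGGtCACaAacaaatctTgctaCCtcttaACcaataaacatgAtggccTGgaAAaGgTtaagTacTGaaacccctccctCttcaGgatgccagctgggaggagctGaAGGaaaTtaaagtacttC
Ly6c2: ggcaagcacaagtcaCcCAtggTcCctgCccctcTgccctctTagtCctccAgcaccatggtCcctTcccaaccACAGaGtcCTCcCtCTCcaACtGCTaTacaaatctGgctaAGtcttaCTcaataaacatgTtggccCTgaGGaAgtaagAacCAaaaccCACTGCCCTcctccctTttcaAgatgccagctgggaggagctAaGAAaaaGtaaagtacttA
On both strands of the 250-base windows, GAGGAA, the core letters bound by the myeloid and B cell factor PU.1, was found once in each gene and in 23.3% of 32851 mouse promoters of this length. TATAAA was found once for Ly6c1 and 0 times for Ly6c2, against 12.4% of promoters, and TTCNNNGAA, the letters bound by STAT factors, 0 times in either, against 7.02%. Matches of different motifs overlapped in 0 places in either window, and a match is not a binding site.

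The shared Ly6c probe set was lower in every pool. Its intensity was 1962, 3834 and 3842 in sorted replicates 1, 2 and 3, against 14947, 15151 and 15211 in presort replicates 1, 2 and 3. The presort arrays lay close together and far above the sorted arrays, of which replicate 1 was the lowest. The means were 11.58 ± 0.56 in sorted and 13.88 ± 0.01 in presort samples (SD, log2, n = 3 each). The difference was -2.30 ± 0.26 (SE, log2), with a 95% interval of -2.91 to -1.69 (limma adjusted p = 0.000751). The pools gave -2.93, -1.98 and -1.99. Sorted replicate 1, the lowest of the sorted arrays for Ly6c and for Ly6d, also had the largest excess of the 3′ over the 5′ beta-actin control probe set, 3.17 on the log2 scale, against 1.54 and 1.43 in sorted replicates 2 and 3 and 0.81 to 1.11 in presort samples. With that excess as a covariate the Ly6c difference was -1.69 and the Ly6d difference 4.32, both still called.

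Most genes of the monocyte and neutrophil lists were lower too. Over all genes 17.3% were lower and 13.4% higher. Of the monocyte list 14 of 17 measured genes fell (82.4%) and 2 rose (11.8%), with a median of -2.27. The chemokine receptor gene Ccr2, which lets Ly6c-high monocytes leave the marrow, stood at -3.48 ± 0.35 (SE, log2, limma adjusted p = 0.000459), and Treml4 and the lectin receptor gene Clec4a3 each at -3.31. Both rises, singled out in the same way, were those of the transcription factor genes Klf4 at 2.10 and Irf8 at 0.89. The Irf8 call was lost under 7 of 19 alternatives, and its difference was 0.54 with the beta-actin covariate (limma adjusted p = 0.286). The summed intensity of the list was 48466 to 51281 in sorted and 95951 to 100365 in presort samples, and 2 of its 17 genes had a sorted mean below the array median, against 0 in presort samples. In the neutrophil list all 18 measured genes fell (median -2.85), with Itgam, the CD11b integrin chain, at -3.97, Ceacam10 at -3.86 and the gelatinase gene Mmp9 at -3.49; its summed intensity was 65506 to 123079 in sorted and 252429 to 264946 in presort samples. The part of these cells in the Ly6c difference was not tested.

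The lists of plasma cells, T and NK cells and endothelial cells, which can also carry Ly6c, are set against 13.4% higher and 17.3% lower over all genes. In the plasma cell list 5 of 10 genes rose and 1 fell (median 0.67), with Irf4 at 2.80 and Sdc1, the syndecan used to sort plasma cells, at 2.53; the fall, singled out in the same way, was that of Jchain, which joins immunoglobulin polymers, at -2.51. In the T and NK cell list 0 of 17 genes rose and 2 fell (median -0.60), with the cytotoxic granule gene Nkg7 at -2.99; at an unadjusted p under 0.05, 9 of the 17 genes passed (52.9%), against 39.6% of all genes. In the endothelial list 1 of 16 genes rose and 5 fell (median -0.18), with the scavenger receptor gene Stab2 at -1.95 and the adhesion gene Pecam1, which many leukocytes also carry, at 1.29. Of these endothelial genes 11 had a sorted mean and 9 a presort mean below the array median.

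**Figure D3:**
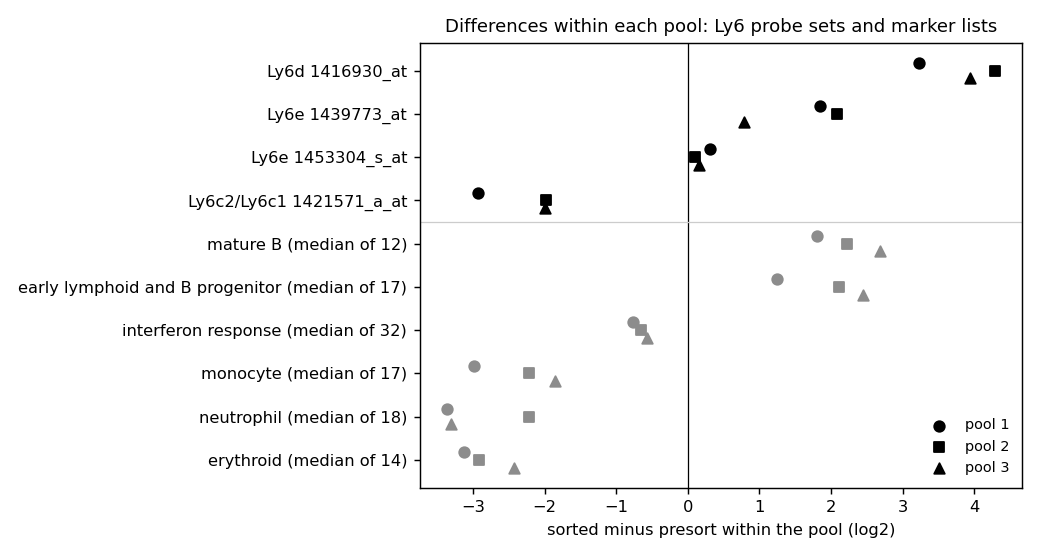
Sorted minus presort difference within each pool (horizontal axis, log2) for the 4 Ly6 probe sets (black) and the medians of 6 marker lists (grey); symbols mark the pool. Ly6d lies between 3.23 and 4.29, to the right of both B lineage medians. The shared Ly6c probe set lies between -2.93 and -1.98, among the monocyte, neutrophil and erythroid medians.

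Along chromosome 15 the gene next to Ly6d was also called higher in sorted samples. Of 22 listed family genes on this chromosome in the RefSeq gene table, 17 had a named probe set. Lynx1, which encodes a small relative of Ly6 proteins that tunes nicotinic acetylcholine receptors in nerve cells, starts directly before Ly6d in the order of starts, with 0 genes starting between them. Its probe set 1441952_x_at stood at 10.74, 10.99 and 9.73 in sorted replicates 1, 2 and 3, against 7.17, 6.95 and 6.74 in presort replicates 1, 2 and 3 (log2). The difference was 3.53 ± 0.32 (SE, log2; 11.6-fold; limma adjusted p = 0.000293). The second Lynx1 probe set, 1417283_at, rose by 3.32 ± 0.25 (9.98-fold). Sorted and presort arrays did not overlap at either probe set, and both calls held under every alternative tried. The gene table lists SLURP-2 as an older name of Lynx1 and holds Slurp2 as a separate neighbour, so which of these transcripts the probe sets read was not tested.

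Of the remaining genes of the cluster that are not members, 2 rose, both by less than 1 on the log2 scale. On the far side of Ly6d, Ly6k rose by 0.83 ± 0.20 (SE, log2) at 1452855_at and stood at 0.00 at 1454071_at, and its call was lost under 5 of 19 alternatives; without pool 1 the difference was 0.51. Psca, the prostate stem cell antigen gene at the start of the cluster, rose by 0.76 ± 0.17, a call lost under 4 of 19 alternatives. Both were dim, with sorted means of 6.14 for Ly6k and 6.81 for Psca, near the array median of 6.04. The losses of Ly6k came without sorted replicate 1 or sorted replicate 2, without pool 2 or pool 3, and with the beta-actin covariate (limma adjusted p up to 0.161), those of Psca without presort replicate 1 or presort replicate 2 and without pool 2 or pool 3 (limma adjusted p up to 0.104). Of the 12 brightest probe sets of non-member genes of the cluster, 3 rose, 0 fell and 9 did not pass (limma), and none of the falls passed at an unadjusted p under 0.05 either. Over all 18193 genes 13.4% were called higher and 17.3% lower, so counts this small do not set the cluster apart. Ly6i, Ly6m, Ly6g2, Ly6f and Ly6h, which sit near Ly6e and Ly6c1, had differences from -0.20 to 0.01 and means below the array median in both groups.

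**Figure D4:**
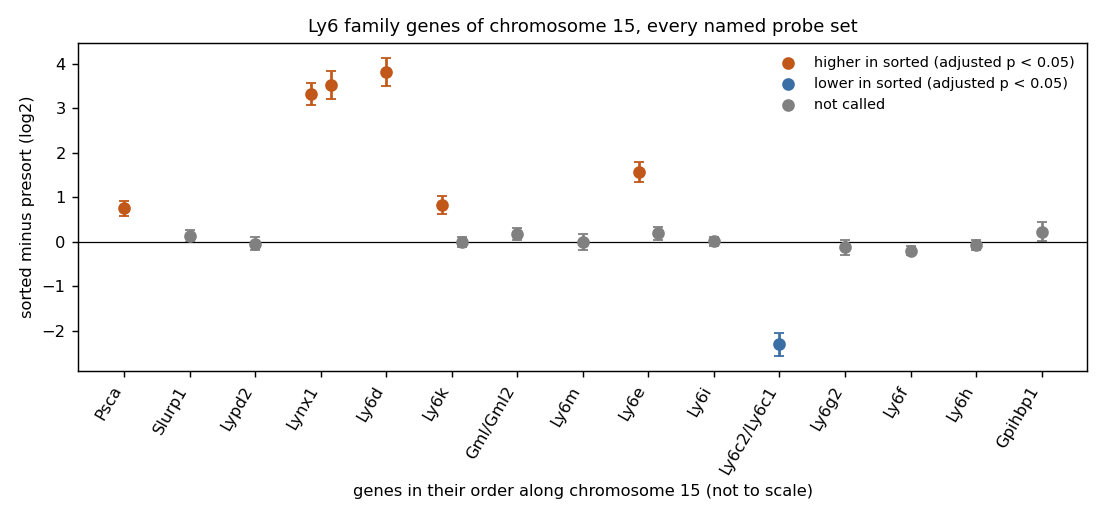
Sorted minus presort difference (vertical axis, log2, bars ± SE of the fit) of every named probe set of the family genes of chromosome 15, in gene order from left to right (order only, not distance). Lynx1 and Ly6d stand side by side between 3.32 and 3.82, the shared Ly6c probe set is the sole one called lower at -2.30, and the 2 Ly6e probe sets are apart.

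Among relatives of Ly6 on all chromosomes, 3 of 28 measured genes rose (10.7%) and 5 fell (17.9%), and the middle difference was -0.03 (log2). These shares lie near the 13.4% called higher and 17.3% called lower among the 18193 genes. Cd177, a GPI-anchored neutrophil protein, stood at -3.20 ± 0.21 (SE, log2, limma adjusted p = 9.78e-05), and Plaur, the urokinase receptor of myeloid cells, at -2.59 ± 0.17. Cd59a, which shields cells from complement, stood at -1.20 at 1418710_at and -0.79 at 1429830_a_at, the second of which lost its call without pool 3 (limma adjusted p = 0.0775). Both Lypd6b at -0.58 and Lypd6 at -0.37 were dim. The Lypd6b call was lost under 6 of 18 alternatives (limma adjusted p up to 0.105), and the Lypd6 call under 12 of 18 (up to 0.348). Centred on the median over genes, they stood at -0.35 for Lypd6b and -0.14 for Lypd6. Of all 37 probe sets of relatives, 23 had both group means below the array median. Cd177 is also a member of the neutrophil list.

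**Figure D5:**
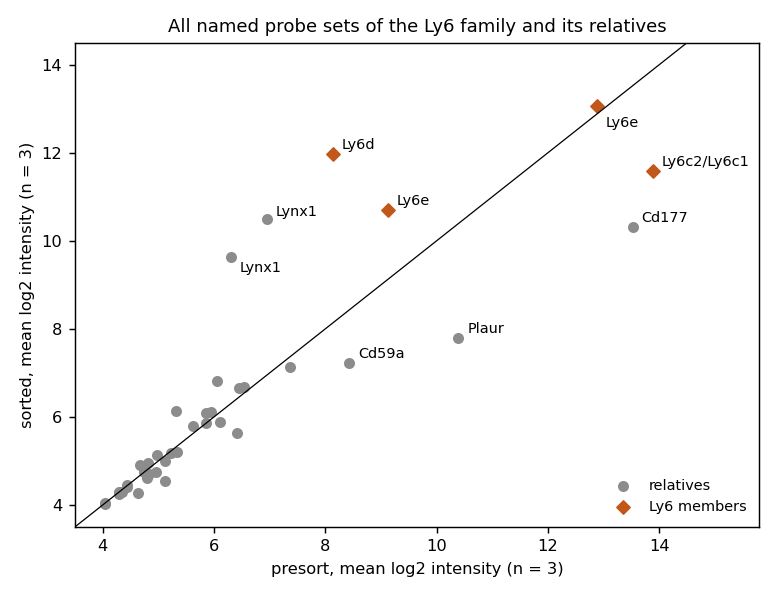
Mean log2 intensity in presort (horizontal axis) and sorted samples (vertical axis; n = 3 each) of every named probe set of the 4 Ly6 members (orange) and their relatives (grey); the line marks equal values, and names are given to members and to relatives that differ by more than 1. Ly6d and Lynx1 lie far above the line, and Cd177, Plaur and the shared Ly6c probe set lie below it.

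Profiles of the members over the 6 arrays were compared with those of other genes, leaving out unnamed transcripts such as Rik or Gm symbols. The nearest genes were those with the smallest root mean square difference of log2 values, each gene first centred on its own mean. For Ly6d they were Iglv1 at 0.26, Cacna1e at 0.27 and Reln at 0.32, with sorted minus presort differences of 3.64, 3.54 and 3.69. For the shared Ly6c probe set they were Top2a at 0.07, Rrm2 at 0.09 and Gclm at 0.11, with differences of -2.23, -2.14 and -2.22. For the brighter Ly6e probe set they were Clec2l at 0.02, Nudt17 at 0.05 and Gys2 at 0.05, with differences of 0.16, 0.19 and 0.14, none of which passed the test.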

How the data were processed

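Total RNA from 6 samples was amplified by in vitro transcription with a 3′ kit, labelled with biotin and put on 1 Affymetrix array each, per the labels' protocols. The deposited values are linear intensities; RMA is the tool named in the submitters' processing notes, and its version is not given in the sources used here. They run from 9.71 to 38492.08 with 1 distribution on all arrays (values of equal rank lie within 0.181% of each other), so a change in total RNA per cell leaves no trace. Log2 was taken with no pseudocount. Of 45101 probe sets 64 controls were left out, 34945 carried 1 symbol, 932 several and 9160 none; symbols come from the platform annotation. Sorted and presort samples were compared per probe set with limma 3.58.1 in R 4.3.3 (lmFit, eBayes, 4 residual degrees of freedom, two-sided, Benjamini-Hochberg over 45037 probe sets, threshold 0.05). In gene lists each gene is read by its brightest single-symbol probe set (18193 genes). Promoters from RefSeq were aligned with Biopython 1.88 (match 1, mismatch -1, gap -3 and -0.5, free ends); of the 4 genes with a named probe set, 2 (Ly6c1 and Ly6c2) matched that table by symbol. No other genome coordinates are given. The members and lists were chosen with earlier results of these data known. The text names every member probe set, every called relative, the 3 nearest profiles, and up to 4 called members of a list by size; others are said to be chosen after their values were seen. The number of arrays limits the precision, and the renin gene is not reported here.

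Sorted and presort arrays with the same number share a pool of mice in the submitters' description, which makes them pairs; same-numbered deviations from group means correlated at 0.41, 0.10 and -0.01 over probe sets. The block, leaving out arrays and pools, scaling, filter, prior, weights, covariate, probe set choice and offset were the alternatives. Arrays were also simulated with 45037 probe sets drawn independently, without pools, and with 100 changes of each of 2 sizes. There 53% of changes of 1 and 86% of changes of 2 (log2) were recovered, with 5 false calls. The real comparison called far more probe sets, 5845 higher and 5814 lower, and has pools. These rates therefore do not carry over to it.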

Additional observations from a re-analysis of the deposited data

How the results depend on the processing

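All 4 Ly6 probe sets kept their direction and their side of the threshold under every alternative that reads them: Ly6d from 3.46 to 4.32 over 19 alternatives (limma adjusted p up to 0.00909), the shared Ly6c probe set from -2.46 to -1.69 over 18 (up to 0.013), Ly6e 1439773_at from 1.31 to 1.96 over 18 (up to 0.038), and Ly6e 1453304_s_at, never called, from 0.09 to 0.42 over 19 (from 0.0635 to 0.77). With the replicate number as a block the differences are unchanged by construction, 2 Ly6 probe sets rose and 1 fell, and 6324 of all probe sets were higher and 6174 lower; of the named called genes run under the block, it ended the calls of Lypd6 (limma adjusted p = 0.065) and Igll1 (0.0763). Over all probe sets 5845 were higher and 5814 lower as reported. Leaving out arrays or pools gave 3022 to 5695 higher and 3666 to 5601 lower, with 3022 higher and 3725 lower without pool 2, 3077 higher and 3666 lower without pool 3, and 3840 and 3688 higher without presort replicates 2 and 3. Centring on the median over genes, chosen after seeing the data, gave 11843 higher and 4388 lower. With the brightest probe set per gene 2629 genes were higher and 3296 lower, and 1 Ly6 probe set was higher and 0 lower, because the shared Ly6c and the dimmer Ly6e probe sets are then not tested. Dim probe sets near the array floor, which include most relatives, have changes this scale understates, and p-values rest on 3 pools.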

Other observations

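Genes of the GPI anchor pathway, on which the anchoring of most Ly6 proteins depends, did not move as one. Of 31 measured members 5 rose (16.1%), 9 fell (29.0%) and 17 did not pass (limma), against 13.4% higher and 17.3% lower over all genes. The higher share thus lay near that of all genes. The median was -0.10 on the log2 scale, against -0.0021 over all genes. The largest called differences were Pigq at -1.45 ± 0.11 (SE, limma adjusted p = 0.000138) and Piga at -1.19 ± 0.13, both subunits of the enzyme of the first step. Of other parts of that enzyme, given after their values were seen, Pigh was called higher at 0.60 (limma adjusted p = 0.0148), and Pigc at 0.02, Pigp at 0.09, Pigyl at -0.05 and Dpm2 at 0.32 were not called. Pgap4, which adds a side chain to anchors in the Golgi, stood at -0.98 and missed the threshold when pool 2 or pool 3 was left out (limma adjusted p up to 0.0787). Of the hematopoietic stem cell list, 2 of 13 genes rose and 5 fell (median -0.40). The largest falls were those of the sialomucin gene Cd34 at -3.51 and the receptor kinase gene Kit at -3.28. Both rises, given after their values were seen, were those of Eya1 at 2.39 (limma adjusted p = 0.000703) and Slamf1 at 0.99 (limma adjusted p = 0.00809). Of the erythroid list 13 of 14 genes fell and 0 rose (median -2.90), with Car1 at -3.65 and Icam4 at -3.40. At an unadjusted p under 0.05 the count was also 13. The scatter gate of the sort removed erythrocytes, and its part in these falls was not tested.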
